A study of Bos taurus with 6 samples.

Results

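The annexins and S100 partners were 10 genes, 8 annexin genes (ANXA1, ANXA2, ANXA3, ANXA4, ANXA5, ANXA6, ANXA7 and ANXA11) and 2 S100 genes (S100A10 and S100A11), of the 17663 genes in the expression table. They were found by gene symbol, and the group was chosen by family and with their levels in these same transgenic and wild-type cells already known. The differences between the groups in these 10 genes are therefore given as a description, with no test.

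RNA was sequenced from bovine fetal fibroblasts (bEFs), primary cultures of connective tissue cells taken from fetuses aged 50 to 60 days. The cultures were started with collagenase from soft tissue of the trunk, without viscera. FT cells came from 3 fetuses carrying exogenous fat-1, a Caenorhabditis elegans gene whose product turns n-6 polyunsaturated fatty acids into n-3 polyunsaturated fatty acids. WT cells were taken from 3 fetuses of wild-type Luxi cattle. Every fetus was sequenced as 1 poly(A) library, named FT_1, FT_2 and FT_3 or WT_1, WT_2 and WT_3. The breed of the FT fetuses and the promoter that drives the transgene are not given in the sources used here.

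Annexins are proteins that bind membranes rich in acidic phospholipids when calcium rises, through a core built of repeated domains, and they differ in their N-terminal tails. S100 proteins are small dimers of the EF-hand type, and most of them bind calcium. Some dock on annexin tails: S100A10 binds ANXA2 and S100A11 binds ANXA1, so that a dimer can bridge annexins on neighbouring membranes. In fibroblasts these proteins are known for membrane repair, vesicle traffic, the link between the plasma membrane and cortical actin, and the control of phospholipase A2.

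Total counts were 63366834, 48167642 and 54204446 in FT_1 to FT_3, and 69777641, 51310741 and 54271927 in WT_1 to WT_3. FT_1 stood apart from the other libraries of its group. The biological coefficient of variation, which is the spread in level that counting noise leaves unexplained, was 46.8% for FT_1 with FT_2 and 47.4% for FT_1 with FT_3. It was 8.12% for FT_2 with FT_3 and 9.76–12.9% within the WT group. Over the 13482 genes tested, the median absolute log2 difference between FT_1 and the mean of FT_2 and FT_3 was 0.39, and over the 10 annexin and S100 genes it was 0.64. Fitted differences between FT and WT cells are for that reason given with and without FT_1.

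All 12 fibroblast marker genes examined were in the table, and their summed FPKM (fragments scaled by gene length and by library total) was 7011, 17240 and 16980 in FT_1 to FT_3, against 17560–18160 in WT libraries. Vimentin (VIM) had an FPKM of 1244, 3850 and 4171 in FT_1 to FT_3 and 7312–8178 in WT cells, where it was the most abundant of them. Decorin (DCN) went the other way in FT_2 and FT_3, with 1803, 4092 and 3769 in FT_1 to FT_3 and 2054–2299 in WT cells, and so did lumican (LUM), with 551, 2759 and 2559 against 1117–1224. Without FT_1 5 of the 12 genes rose and 2 fell, beside 30.6% and 31.5% of all genes tested. With all libraries 1 rose and 1 fell, beside 20.1% and 18.9%. The similar sums of FT_2, FT_3 and the WT libraries thus cover genes that changed in both directions, and nothing more is read from these counts. PDGFRA, the gene that rose with all libraries (log2 fold change 1.06, adjusted p = 0.0053, and 0.89 without FT_1), was highest in FT_1, with 218, 166 and 141 in FT_1 to FT_3 and 87.0–99.7 in WT cells, and THY1 was highest in FT_1 too (413, against 330–369 in the other libraries). The 8 epithelial markers were all in the table and summed to 442, 16.2 and 15.8 in FT_1 to FT_3, and to 7.92–14.2 in WT cells. With all libraries 1 of 6 tested rose and 0 fell (20.1% and 18.9% of all genes). Without FT_1 5 rose and 0 fell (30.6% and 31.5% of all genes). CLDN4, the one that rose with all libraries, was at 3.39–3.82 in FT and 0.09–0.33 in WT cells (adjusted p = 0.00184, and 6.81e-06 without FT_1). KRT5 was the most abundant of these in FT_1 and CDH1 in the other 5 libraries, EPCAM was detected in FT_1 only (FPKM 0.57), and EPCAM, KRT5, KRT14, KRT8 and KRT18 had an FPKM of 0 in all 3 WT libraries. Mesothelial markers (4 of 6 in the table) summed to 201, 45.03 and 46.3 in FT_1 to FT_3 and to 2.34–3.51 in WT cells. MSLN made up most of that sum in every library. UPK3B was at 1.03, 0.10 and 0.09 in FT_1 to FT_3 against 0.20–0.25 in WT cells. BNC1 was at 1.52, 0 and 0 in FT_1 to FT_3 against 0.02–0.04 in WT cells. WT1 was near the floor in both groups, at 0 in the 3 FT libraries and 0.03–0.05 in WT cells. Adipocyte markers (5 of 6 in the table, led by LPL in FT and by FABP4 in WT libraries) summed to 2.96, 14.02 and 15.2 in FT_1 to FT_3 and to 138–155 in WT cells, where FABP4 alone was at 128–143 and ADIPOQ did not exceed 0.28. CIDEC was lower in FT cells too, at 0.08, 0 and 0 in FT_1 to FT_3 against 2.27–3.20 in WT cells (adjusted p = 0.00903, and 3.35e-06 without FT_1). LPL overlapped between the groups, and PLIN1 was at 1.31–1.49 in FT and 1.23–1.27 in WT cells. The endothelial, skeletal muscle, immune and neural crest and glial lists (the last led by S100B) each summed to at most 13.1 in every library. In them DES rose, with 5.74, 4.01 and 3.17 in FT_1 to FT_3 against 0–0.07 in WT cells (adjusted p = 0.00488). CD68 fell, with 0.77–1.35 in FT against 2.57–3.02 in WT cells (adjusted p = 0.0185). Both passed without FT_1 too, where PECAM1, ERG, MYF5, CD14 and S100B also fell. Fibroblast markers thus led in every library, as the label says, with a lower fibroblast sum in FT_1, though not of each gene, and a higher epithelial sum.

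The 10 genes lay on 7 chromosomes in the authors' table. The submitters' processing notes name mm8, a mouse build, for this cattle table, so the build of the coordinates below is not settled. S100A11 (chromosome 3, 18727498 to 18733580) and S100A10 (chromosome 3, 18762472 to 18773422) were neighbours 28.9 kb apart, whereas ANXA1 was on chromosome 8 (49321220 to 49339587) and ANXA2 on chromosome 10 (49800140 to 49844615). ANXA3 and ANXA5 shared chromosome 6, and ANXA7 and ANXA11 shared chromosome 28, each far from the other. Only ANXA7 overlapped another annotated gene, and that gene had at most 5 counts in any library. The authors' annotation gave calcium ion binding to all 10 (of 483 such genes in the table), calcium-dependent phospholipid binding to 8 (of 41) and phospholipase A2 inhibitor activity to 3 (of 3).

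In WT cells the 10 genes spanned from a mean FPKM of 4804 ± 270 for ANXA2 to 15.1 ± 1.18 for ANXA3 (SD, n = 3). The order between them was S100A10 (1504 ± 86.2), ANXA5 (1019 ± 28.3), ANXA1 (772 ± 56.3), S100A11 (466 ± 35.8), ANXA4 (198 ± 8.68), ANXA6 (146 ± 1.76), ANXA11 (86.7 ± 1.17) and ANXA7 (67.7 ± 4.38). None of the 9 neighbouring steps of this order overlapped across the 3 WT libraries. FT_2 and FT_3 had the same order except that S100A11 came before ANXA1. FT_1 broke the order further, with S100A11 second and ANXA3 seventh, and in the FT group as a whole 5 of the 9 neighbouring steps overlapped.

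**Figure D1:**
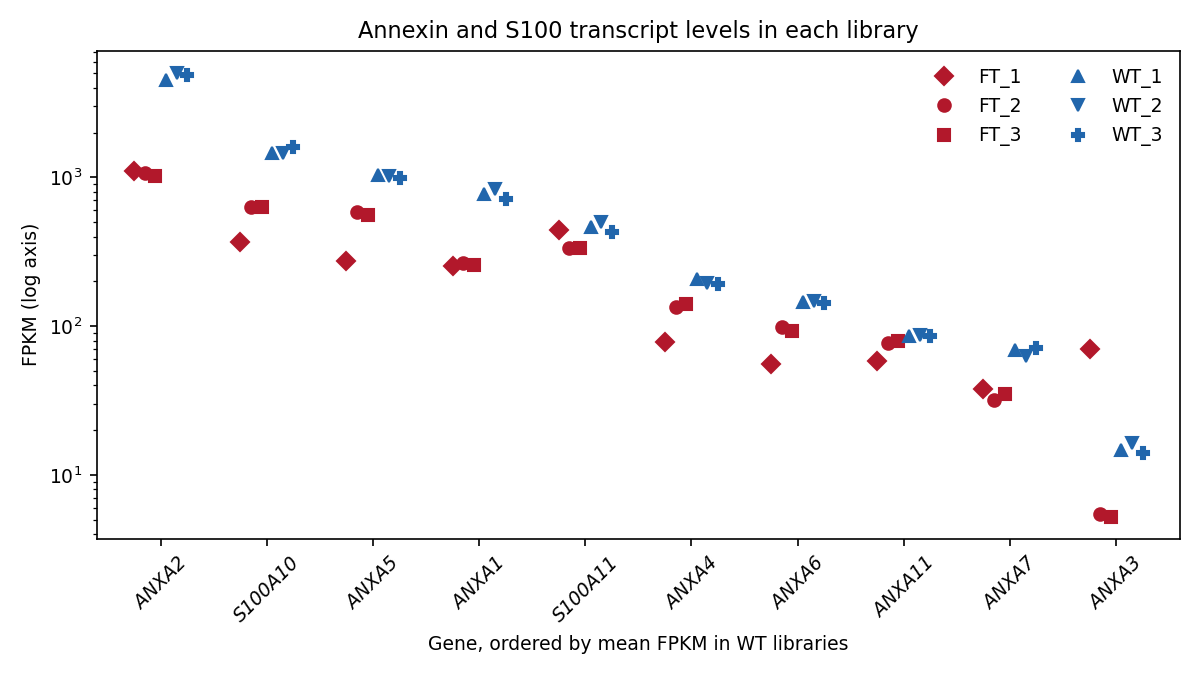
FPKM of the 10 annexin and S100 genes on a log axis, 1 point per library, with FT libraries in red and WT libraries in blue. ANXA2 was the most abundant in all 6 libraries, the blue points of a gene lie close together, and FT_1 (diamond) lies away from FT_2 and FT_3 for ANXA3, ANXA4, ANXA5, ANXA6 and S100A10.

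ANXA2, the annexin that joins S100A10 in a heterotetramer at the plasma membrane, had an FPKM of 1105, 1076 and 1020.3 in FT_1 to FT_3, and of 4508, 5036 and 4868 in WT_1 to WT_3. All FT libraries lay below all WT libraries, and FT_1 was level with the other FT libraries. In the edgeR fit the log2 fold change (FT minus WT) was -2.01 (SE 0.12), a level 4.03-fold lower, and -2.03 (SE 0.07) without FT_1. The fit works on counts with trimmed-mean (TMM) scaling between libraries, so its values differ somewhat from ratios of FPKM. Lower RNA per cell and fewer cells of a kind rich in a transcript cannot be told apart in bulk RNA, here or for the genes that follow. The difference of ANXA2 was the largest among the 10 genes with and without FT_1.

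S100A10, whose dimer binds the ANXA2 tail and is protected from degradation by it, had an FPKM of 368, 629 and 632 in FT_1 to FT_3, and of 1460, 1449 and 1604 in WT_1 to WT_3. The groups did not overlap, and FT_1 was the lowest library. The log2 fold change was -1.31 (SE 0.23), and -1.08 (SE 0.07) without FT_1.

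ANXA1, a mediator of glucocorticoid action that also acts outside the cell, had an FPKM of 254, 268 and 257 in FT_1 to FT_3, against 769, 830 and 718 in WT_1 to WT_3. The 3 FT libraries were close to each other and below every WT library. FT minus WT on the log2 scale was -1.41 (SE 0.10), and -1.39 (SE 0.07) without FT_1. S100A11, the S100 protein that docks on the ANXA1 tail, had an FPKM of 445, 336 and 334 in FT_1 to FT_3, against 465, 502 and 431 in WT_1 to WT_3. FT_1 lay within the WT range while FT_2 and FT_3 lay under it, so the groups overlapped through FT_1 alone. For S100A11 the log2 fold change was -0.17 (SE 0.14), and -0.31 (SE 0.07) without FT_1.

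ANXA5 binds exposed phosphatidylserine and forms lattices on damaged membranes. Its FPKM was 273, 589 and 560 in FT_1 to FT_3, against 1045, 1022 and 989 in WT_1 to WT_3. FT_1 was the lowest library, FT_2 and FT_3 stood between it and the WT libraries, and the groups did not overlap. The log2 fold change was -0.94 (SE 0.30), and -0.66 (SE 0.06) without FT_1. ANXA4, which binds and curves membranes, and ANXA6, which carries a doubled annexin core and takes part in endosome traffic and membrane repair, followed the same layout. ANXA4 had an FPKM of 78.5, 135 and 141 in FT_1 to FT_3 and 192–208 in WT libraries. ANXA6 had 55.9, 99.0 and 93.5 in FT_1 to FT_3 and 144–148 in WT libraries. Neither gene had groups that overlapped, and FT_1 was the lowest library for both. The log2 fold change moved from -0.58 (SE 0.24) to -0.35 (SE 0.07) without FT_1 for ANXA4 and from -0.66 (SE 0.23) to -0.43 (SE 0.06) for ANXA6. The fibroblast marker sum was also lowest in FT_1 (7011 against 16980 and 17240 in FT_3 and FT_2), and its part in these FT_1 values was not tested.

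ANXA7 and ANXA11 have long N-terminal tails and bind the calcium sensors sorcin (SRI) and PDCD6. ANXA7 had an FPKM of 37.7, 32.1 and 35.1 in FT_1 to FT_3, against 68.8, 62.8 and 71.4 in WT_1 to WT_3. The groups did not overlap and FT_1 was level with the other FT libraries. Its log2 fold change was -0.79 (SE 0.09), and -0.84 (SE 0.08) without FT_1. ANXA11 had an FPKM of 58.0, 77.3 and 79.2 in FT_1 to FT_3, against 86.4, 87.9 and 85.6 in WT_1 to WT_3. FT_2 and FT_3 came close to the WT libraries without reaching them on this scale. For ANXA11 the log2 fold change was -0.12 (SE 0.14) and turned to 0.02 (SE 0.06) without FT_1, both smaller than their errors.

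ANXA3, a less studied annexin of epithelial and myeloid cells, was the exception. It had an FPKM of 70, 5.45 and 5.26 in FT_1 to FT_3, against 14.6, 16.4 and 14.2 in WT_1 to WT_3. FT_1 was above every WT library and FT_2 and FT_3 were below every WT library. Its fitted log2 difference was 0.98 with an error of about its own size (SE 1.02), and -1.32 (SE 0.10) without FT_1, so its direction rested on FT_1. The raw count of ANXA3 was 9630, 569 and 618 in FT_1 to FT_3. The epithelial marker sum was 442, 16.2 and 15.8 in FT_1 to FT_3, and its part in the ANXA3 values was not tested.

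Taking the 10 genes side by side, all FT libraries lay below all WT libraries in 8 and above them in 0, and the groups overlapped in ANXA3 and S100A11. Over all genes tested, 36.9% had all FT libraries below all WT libraries and 21.8% had them above. Nothing is read from this because the 10 genes were selected on this contrast. Both comparisons use FPKM, without the TMM scaling of the fit, whose factors were 0.934–0.968 in FT and 1.05–1.06 in WT libraries. All 10 genes passed the low-count filter. The median log2 fold change was -0.72 over the 10 genes and 0.03 over all genes tested, and -0.75 and -0.02 without FT_1. With library totals as the only scaling, the median over all genes moved to -0.12 and that over the 10 genes to -0.88. The 9 genes with a negative log2 fold change kept that sign in every alternative fit, with the exception of ANXA11 without FT_1. ANXA3, positive in the edgeR fit, was at -0.18 in limma on log2(FPKM + 1). The adipocyte marker sum (2.96–15.2 in FT and 138–155 in WT cells) and the mesothelial marker sum (45.03–201 in FT and 2.34–3.51 in WT cells) differed between the groups too, with FABP4 and MSLN as the largest terms, and their part in these differences was not tested.

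**Figure D2:**
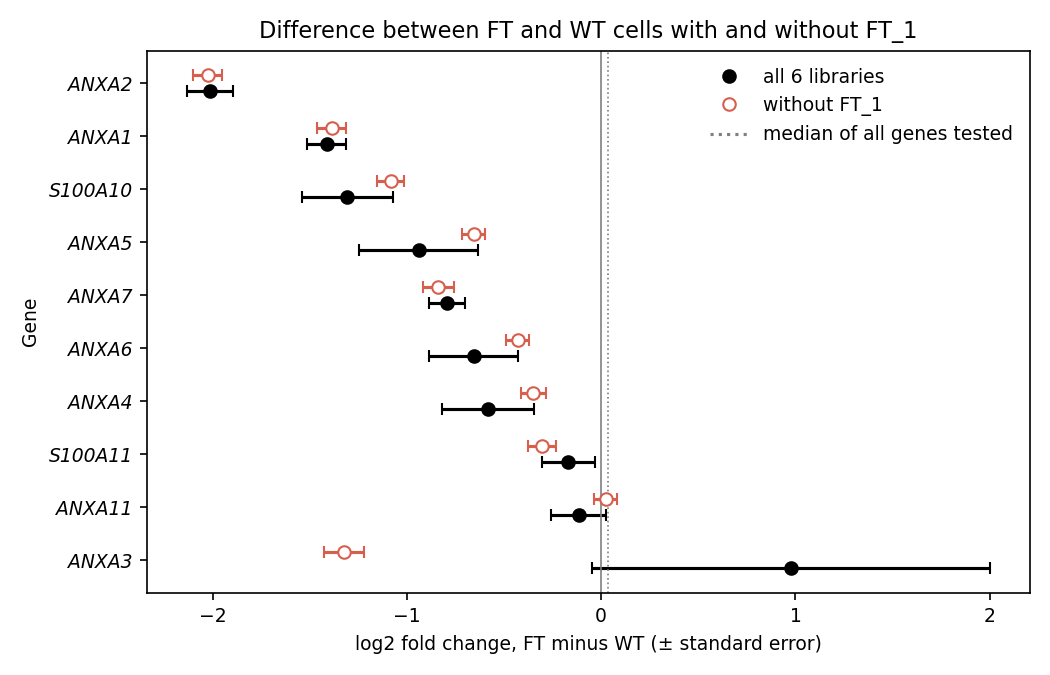
Log2 fold change between FT and WT cells from the edgeR fit, with its standard error, for all 6 libraries (filled) and without FT_1 (open). The dotted line is the median of all genes tested, 0.03; ANXA2 is at -2.01 and -2.03, and ANXA3 moves from 0.98 to -1.32.

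FT_1 departed from FT_2 and FT_3 in some of the 10 genes and not in others. On the log2 scale FT_1 minus the mean of FT_2 and FT_3 was 0.04 for ANXA2, -0.09 for ANXA1 and 0.13 for ANXA7. It was -1.11 for ANXA5, -0.85 for ANXA4, -0.82 for ANXA6, -0.81 for S100A10 and -0.47 for ANXA11. It was 0.37 for S100A11 and 3.67 for ANXA3. FT_1 was thus below FT_2 and FT_3 in 6 genes and above them in 4, while ANXA1, ANXA2 and ANXA7 differed least.

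The summed FPKM of the 10 genes was 2745, 3248 and 3157 in FT_1 to FT_3, and 8771, 9349 and 9116 in WT_1 to WT_3. Their share of all counts was 0.486% ± 0.048 in FT and 1.36% ± 0.044 in WT cells (SD, n = 3). ANXA2 made up 32.3–40.2% of the sum in FT cells and 51.4–53.9% in WT cells. S100A11 made up 10.3–16.2% in FT cells and 4.72–5.37% in WT cells, while the share of ANXA1 was 8.13–9.25% in FT and 7.87–8.88% in WT cells.

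Ratios within a library do not depend on scaling between libraries. The ratio of S100A10 to ANXA2 was 0.333, 0.584 and 0.619 in FT_1 to FT_3, against 0.324, 0.288 and 0.329 in WT_1 to WT_3. FT_2 and FT_3 thus had more S100A10 transcript per ANXA2 transcript than WT cells, and FT_1 was just above the WT range. The ratio of S100A11 to ANXA1 was 1.75, 1.25 and 1.301 in FT_1 to FT_3, against 0.605, 0.605 and 0.600 in WT_1 to WT_3. It was above 1 in every FT library and below 1 in every WT library, where it hardly varied. The ratio of ANXA2 to ANXA5 was 4.05, 1.83 and 1.82 in FT_1 to FT_3, against 4.31–4.93 in WT cells. FT_1 lay near the WT libraries for this ratio and far from FT_2 and FT_3. For ANXA2 to ANXA1 it lay with its own group, at 4.35, 4.02 and 3.98 in FT_1 to FT_3 against 5.87–6.78 in WT cells.

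**Figure D3:**
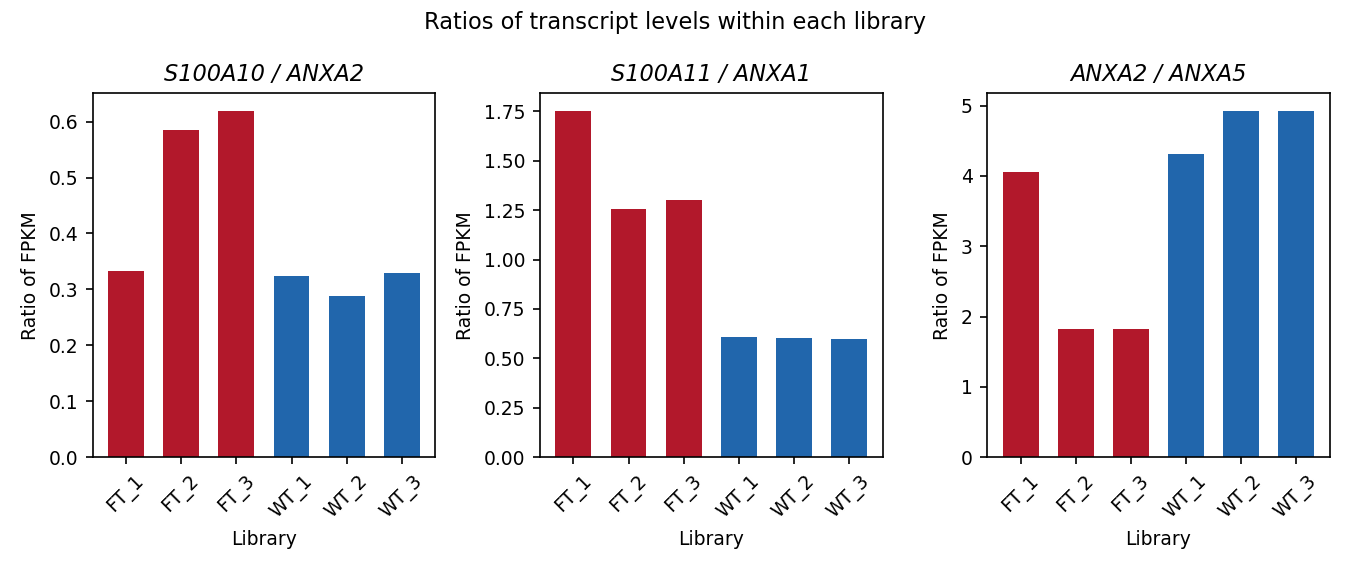
Ratio of FPKM between annexin and S100 genes of the same library, with bars from 0 for FT (red) and WT (blue) libraries. S100A11 to ANXA1 is 1.25–1.75 in FT and 0.600–0.605 in WT libraries, whereas FT_1 lies near the WT libraries in the other 2 ratios drawn.

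The genes that work with annexins and S100 proteins were examined as 7 lists, through edgeR's quasi-likelihood test with Benjamini-Hochberg adjustment over all 13482 genes. The p-values measure the spread between fetuses, with 3 per group, or 2 in a group that lost a library. Those without FT_1 rest on FT_2 and FT_3 (biological coefficient of variation 8.12%). They leave out the wider spread with FT_1 (46.8% and 47.4%). Of all genes tested, 2714 (20.1%) rose and 2547 (18.9%) fell in FT cells at an adjusted p under 0.05, and without FT_1 4215 (30.6%) rose and 4337 (31.5%) fell of 13765. Without FT_2 2122 rose and 1963 fell of 13836, and without FT_3 2151 and 1998 of 13829. Without WT_1 1516 rose and 1531 fell of 13804, without WT_2 1613 and 1570 of 13847, and without WT_3 1796 and 1741 of 13849. Of 83 listed partner genes, 67 were in the table and 61 were tested, and 10 rose and 15 fell. Without FT_1, 19 rose and 30 fell of 62, and all 25 genes that had passed did so again in the same direction. The number that rose was 4 without FT_2, 4 without FT_3, 3 without WT_1, 4 without WT_2 and 5 without WT_3. The number that fell was 14, 14, 9, 10 and 11 in the same order. The median log2 fold change of the partner genes was -0.05, and -0.23 without FT_1. The balance of directions differed between fits: 51.6% of all genes that passed were higher in FT cells in edgeR, 37.6% with library totals as its only scaling, and 34.0% in limma on FPKM, which differs in model and filter too. The number of partner genes that rose and fell was 8 and 21 with library totals only, and 5 and 22 in limma. The 16 listed genes outside the table, ANXA10, S100A6 and S100A9 among them, were not analysed here.

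Among the other annexins, 3 of 5 were in the table. ANXA13, an annexin of epithelia, fell, with an FPKM of 1.45, 1.48 and 1.45 in FT_1 to FT_3 against 3.71–4.18 in WT cells. On the log2 scale ANXA13 differed by -1.28 (SE 0.20, adjusted p = 0.00473), and -1.26 without FT_1. ANXA8L1 had an FPKM of 206, 15.3 and 15.6 in FT_1 to FT_3, against 79.2, 74.1 and 80.8 in WT_1 to WT_3. As with ANXA3, FT_1 was above and FT_2 and FT_3 were below every WT library. Its log2 fold change was 0.16 (SE 1.02, adjusted p = 0.916), whereas without FT_1 it fell by 2.16 on the log2 scale (SE 0.07, adjusted p = 4.37e-08). Of the annexins outside the 10 genes, 0 rose in edgeR, at an unadjusted p under 0.05, or in DESeq2 or limma. ANXA9 did not pass the low-count filter with all libraries, and did not pass the test without FT_1.

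Of the other S100 genes, 11 of 16 were in the table and 9 were tested, of which 3 fell and 0 rose in edgeR (0 at an unadjusted p under 0.05, and 0 in DESeq2 and in limma at the adjusted threshold). Without FT_1 8 fell and 1 rose. S100A1, which modulates calcium handling in muscle, had an FPKM of 0.38, 0.79 and 0.82 in FT_1 to FT_3 against 5.68–6.17 in WT cells. The transcript fell by 2.99 on the log2 scale (SE 0.35, adjusted p = 0.00209), and by 2.7 without FT_1. S100A13, which takes part in the release of growth factors that lack a signal peptide, fell by 0.89 (SE 0.18, adjusted p = 0.0108), and S100A14 fell by 0.76 (SE 0.08, adjusted p = 0.00158). Without FT_1 they fell by 0.74 and 0.73. These 3 genes lay in a row on chromosome 3 between 16751302 and 16768597, which was noticed after their values were seen. Next to them, S100A16 (chromosome 3, 16769716 to 16776627) had a log2 fold change of 0.12 (SE 0.24, adjusted p = 0.737), and without FT_1 it fell by 0.22 (adjusted p = 0.0329).

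S100A4, a mark of motile fibroblasts, was the most abundant of these genes, with an FPKM of 1775, 3039 and 2598 in FT_1 to FT_3 against 3848, 3954 and 4106 in WT_1 to WT_3. The groups did not overlap, yet the log2 fold change of -0.52 (SE 0.21) did not pass the test (adjusted p = 0.102). It did pass with library totals only, in DESeq2 and in limma on FPKM (adjusted p = 0.0435, 0.0439 and 0.0484), and not with RLE scaling, the replicate block or limma with no filter (0.1001, 0.1204 and 0.2104). Without FT_1 S100A4 fell by 0.32 (SE 0.07, adjusted p = 0.00393). S100A2, found mainly in basal epithelial cells, had an FPKM of 76.1, 4.90 and 3.96 in FT_1 to FT_3 against 14.1–15.9 in WT cells, the layout of ANXA3 and ANXA8L1. Its log2 fold change was 1.06 (SE 1.12, adjusted p = 0.486), and -1.57 (SE 0.15, adjusted p = 1.46e-05) without FT_1. S100A3 (FPKM at most 2.66), S100A5 (at most 1.06) and S100B did not pass the test with all libraries. Their log2 fold changes were 1.69, -2.57 and -0.16 (adjusted p = 0.121, 0.105 and 0.781). Without FT_1 S100A3 rose by 2.17 (adjusted p = 0.0013) while S100A5 fell by 2.38 and S100B by 0.74 (adjusted p = 0.0012). The S100A5 call (SE 0.93, adjusted p = 0.0486) rested on 0 and 15 counts in FT_2 and FT_3, against 32–88 in WT libraries.

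FT_1, the library with the highest ANXA3, ANXA8L1 and S100A2, was also the one with the highest keratins. KRT5 stood at an FPKM of 172, 2.57 and 1.63 in FT_1 to FT_3 and at 0 in the 3 WT libraries. KRT14 stood at 128, 1.76 and 1.11 in FT_1 to FT_3 and likewise at 0 in WT cells. CDH1, another epithelial marker, stood at 36.3, 7.11 and 8.41 in FT_1 to FT_3 and at 7.83–13.9 in WT cells. The part of epithelial transcripts in the FT_1 values of these annexin and S100 genes was not tested.

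**Figure D4:**
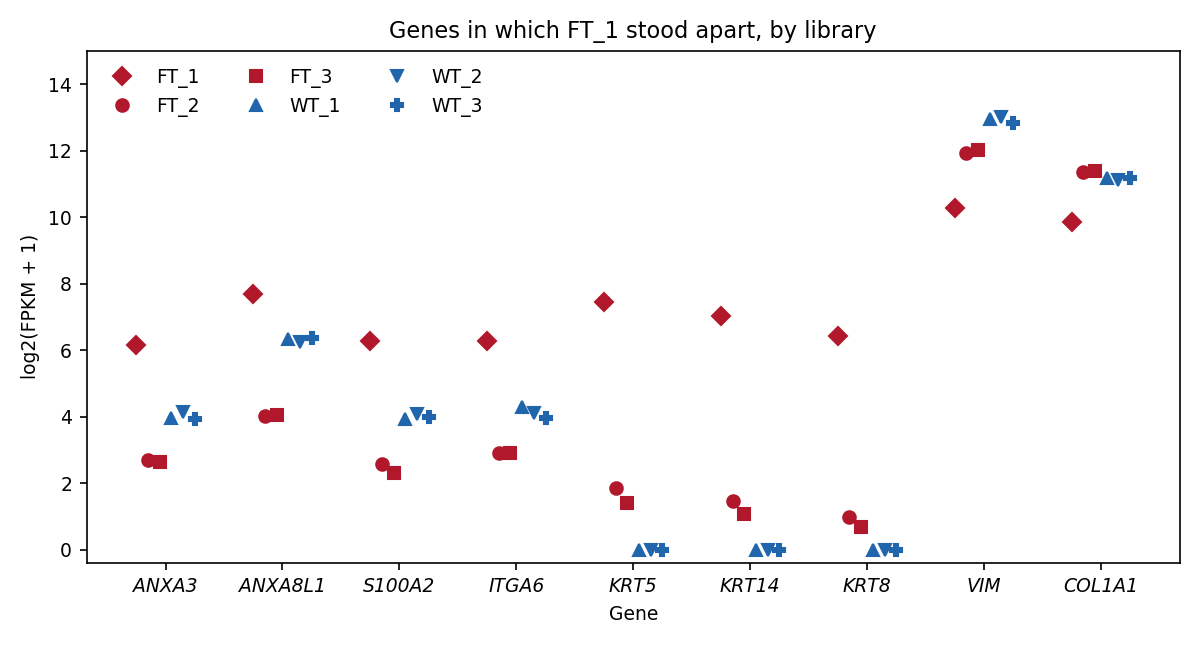
Log2(FPKM + 1) of ANXA3, ANXA8L1, S100A2, ITGA6, 3 keratins, VIM and COL1A1 in each library (FT red, WT blue), shown after their values were seen. FT_1 is the highest library for the first 7 genes and the lowest for VIM and COL1A1 (of the fibroblast markers not drawn, PDGFRA and THY1 were highest in FT_1), and the keratins KRT5, KRT14 and KRT8 are at 0 in WT libraries.

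Partners in membrane repair and scaffolding (18 of 20 in the table, 17 tested) included 5 that fell and 1 that rose, and 8 and 4 without FT_1. The number that fell was 2 without WT_1, 2 without WT_2 and 3 without WT_3. CAV1, the main structural protein of caveolae, had an FPKM of 188, 254 and 267 in FT_1 to FT_3 against 1004, 1042 and 988 in WT_1 to WT_3. The groups were far apart and FT_1 was the lowest. CAV1 fell by 1.93 on the log2 scale (SE 0.17, adjusted p = 0.00106), and by 1.79 without FT_1. CAPN2, the catalytic subunit of the calpain that cleaves proteins at wound sites, fell by 0.88 (SE 0.09, adjusted p = 0.00149), and by 0.84 without FT_1. CAV2 and CAVIN3, named after their values were seen, and FER1L6 were the other genes of the list that fell. The call of CAV2 was lost without WT_1 or WT_2 (adjusted p up to 0.0589) and that of CAVIN3 without WT_1, WT_2 or WT_3 (up to 0.0962). FER1L6 rested on 2, 6 and 0 counts in the FT libraries against 40, 25 and 45 in the WT libraries, overlapped another gene and lost its call without WT_1, WT_2 or WT_3 (adjusted p up to 0.123), with no low-count filter (0.0732) and with the replicate number as a block (0.103). EHD2, an ATPase at the neck of caveolae, rose by 0.71 (SE 0.12, adjusted p = 0.00562), and by 0.81 without FT_1. The giant scaffold AHNAK, which binds the ANXA2 and S100A10 complex, had an FPKM of 77.9, 160 and 151 in FT_1 to FT_3 against 241–290 in WT cells, and did not pass the test with all libraries (log2 fold change -0.87, SE 0.30, adjusted p = 0.0628), while without FT_1 it fell by 0.60 (adjusted p = 0.000165). It was named after its values were seen.

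The penta-EF-hand proteins and the ESCRT machinery that ANXA7 and ANXA11 meet at damaged membranes were all in the table and tested (13 of 13). In this list 4 fell and 2 rose, and 6 and 3 without FT_1. Without WT_1, WT_2 or WT_3 2 fell each time, and 1 rose without any one of the libraries other than FT_1. In limma on FPKM 7 fell and 1 rose. Sorcin (SRI) had an FPKM of 13.5, 14.96 and 13.2 in FT_1 to FT_3 against 26.0–28.4 in WT cells, and fell by 0.83 (SE 0.09, adjusted p = 0.00153), and by 0.80 without FT_1. PDCD6, the calcium sensor that binds ANXA7 and ANXA11, fell by 0.43 (SE 0.10, adjusted p = 0.0171) and by 0.35 without FT_1, a call lost without WT_1, WT_2 or WT_3 (adjusted p up to 0.0664). The ESCRT-III subunit gene CHMP3 fell by 0.64 (SE 0.09, adjusted p = 0.00354) and by 0.57 without FT_1, and VPS4A was the fourth gene that fell. TSG101, an ESCRT-I subunit, rose by 0.56 (SE 0.10, adjusted p = 0.00834) and by 0.51 without FT_1. The gene of its binding partner PDCD6IP rose by 0.28 (SE 0.07, adjusted p = 0.025), and by 0.30 without FT_1. VPS4A and PDCD6IP were named after their values were seen, and both lost their call without FT_2, FT_3, WT_1, WT_2 or WT_3 (adjusted p up to 0.136 and 0.115) and with the replicate block (0.124 and 0.0997). PDCD6IP also lost it with library totals only (0.188) and in limma on FPKM (0.177), and VPS4A with no low-count filter (0.0631).

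The S100A10 clients and the plasminogen system at the cell surface (8 of 11 in the table, 7 tested) held 3 genes that rose and 1 that fell, and 4 and 1 without FT_1. Only 1 rose without any one of the other libraries, and 1 in limma on FPKM. The serotonin receptor gene HTR1B, whose product S100A10 binds, had an FPKM of 14.7, 22.2 and 22.1 in FT_1 to FT_3 against 1.85–3.60 in WT cells. It rose by 2.99 on the log2 scale (SE 0.31, adjusted p = 0.00159), and by 3.16 without FT_1. PLAT, the tissue plasminogen activator that S100A10 can bind, had an FPKM of 18.1, 27.0 and 25.3 in FT_1 to FT_3 against 43.6–47.8 in WT cells. It fell by 0.79 (SE 0.17, adjusted p = 0.0134) and by 0.63 without FT_1, and missed the threshold without WT_1 (adjusted p = 0.0569). Plasminogen (PLG) was at 0.31–1.05 in FT and 0.14–0.23 in WT cells and rose by 1.95 (SE 0.52, adjusted p = 0.0299), and by 2.30 without FT_1. The urokinase receptor gene PLAUR rose by 0.47 (SE 0.14, adjusted p = 0.0395), and by 0.39 without FT_1. Both PLG and PLAUR lost their call without FT_2, FT_3, WT_1, WT_2 or WT_3 (adjusted p up to 0.108 and 0.104), PLAUR also with library totals only (adjusted p = 0.124), with no low-count filter (0.0525) and in limma on FPKM (0.118), and PLG in limma with no filter (0.0813) and with the replicate block (0.106).

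Of the ANXA1 receptors and the phospholipases that annexins restrain, 3 of 7 were in the table, all phospholipase genes. With edgeR 0 of them passed the test, 2 were higher at an unadjusted p under 0.05, 2 passed in DESeq2 and 0 in limma, and 2 rose without FT_1 in edgeR. PLA2G4B and PLA2G6, named after their values were seen, had a log2 fold change of 0.81 and 0.49 (adjusted p = 0.0547 and 0.0603). Without FT_1 PLA2G6 rose by 0.55 (adjusted p = 0.00835) and PLA2G4B did not pass (0.61, adjusted p = 0.0542). PLA2G4A, the cytosolic phospholipase A2 that frees arachidonic acid, had an FPKM of 6.35, 12.1 and 11.8 in FT_1 to FT_3 against 10.99–12.2 in WT cells (log2 fold change -0.04, SE 0.26, adjusted p = 0.906), and without FT_1 it rose by 0.21 (SE 0.08, adjusted p = 0.043). Its levels in FT_2 and FT_3 overlapped those of WT cells, and FT_1 was the lowest library.

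The glucocorticoid axis, which controls ANXA1 in many tissues, had 11 of 11 genes in the table and 10 tested. With all libraries 4 rose and 1 fell, and without FT_1 5 rose and 5 fell. The number that rose was 1 without FT_2, FT_3 or WT_2, 0 without WT_1, 2 without WT_3 and 2 in limma on FPKM, where 2 fell, as with library totals only. NR3C1, the glucocorticoid receptor gene, had an FPKM of 12.8, 11.05 and 10.1 in FT_1 to FT_3 against 20.4–24.6 in WT cells, and fell by 0.82 (SE 0.11, adjusted p = 0.00341), and by 0.91 without FT_1. HSD11B1, the enzyme that makes active glucocorticoid from its inert form, had an FPKM of 18.1, 56.4 and 55.9 in FT_1 to FT_3 against 13.5–17.4 in WT cells. It rose by 1.63 (SE 0.44, adjusted p = 0.0312), and by 2.001 (SE 0.11) without FT_1. The receptor's target genes KLF9 and PER1 rose by 0.90 (SE 0.23, adjusted p = 0.0255) and 0.66 (SE 0.15, adjusted p = 0.0169), and DUSP1, named after its values were seen, rose too. Without FT_1 KLF9 rose by 1.06, PER1 by 0.74 and SGK1 by 0.24 (adjusted p = 0.0413). SGK1, named after its values were seen, was at 0.02 with all libraries and did not pass. Other targets went down without FT_1: FKBP5 by 0.54, MT2A by 1.34, NFKBIA by 0.57 and CEBPD by 0.39 (adjusted p from 1.04e-05 to 0.0422). With all libraries these 4 did not pass, at -0.37, 0.56, 0.50 and 0.67, and they too were named after their values were seen. The call of HSD11B1 and of KLF9 was lost without FT_2, FT_3, WT_1, WT_2 or WT_3 (adjusted p up to 0.116 and 0.0756), and that of PER1 without FT_2, FT_3, WT_1 or WT_2 (adjusted p up to 0.0733), while DUSP1 lost its call without WT_1 (adjusted p = 0.0537). HSD11B1 and PER1 also missed the threshold in limma on FPKM (adjusted p = 0.0621 and 0.0504), HSD11B1 with the replicate block (0.0823) and KLF9 in limma with no filter (0.056).

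**Figure D5:**
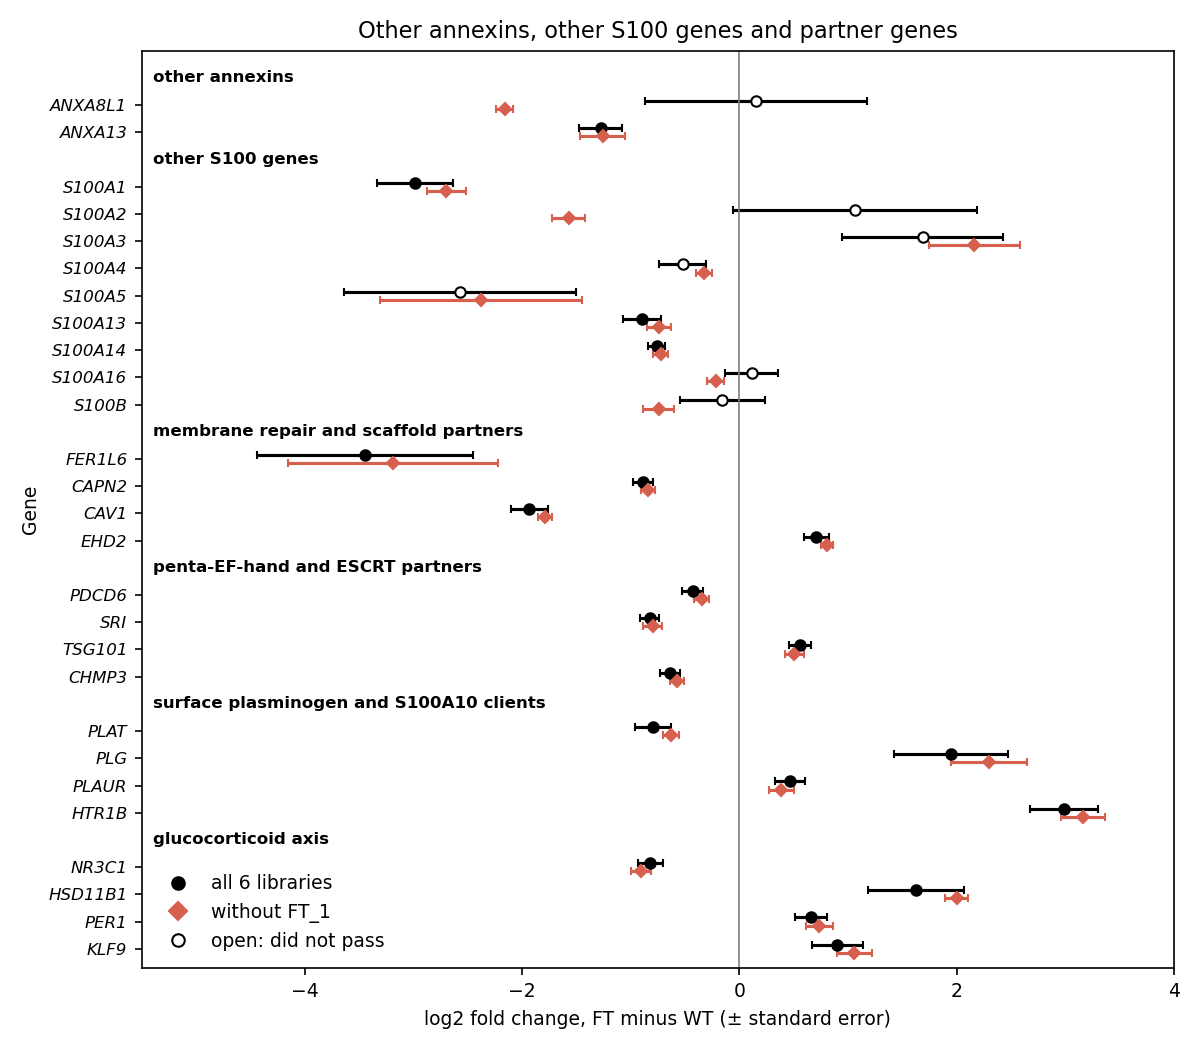
Log2 fold change between FT and WT cells, with its standard error, of the other annexins, the other S100 genes and named partner genes, from all 6 libraries (circles) and without FT_1 (diamonds). Open symbols did not pass edgeR's test at an adjusted p of 0.05; of the genes drawn, ANXA8L1, S100A2 and S100A16 change sign without FT_1, and HTR1B is highest, at 2.99 and 3.16.

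Outside these lists, the genes whose pattern came closest to that of ANXA2 over the 6 libraries were STMN1, CRISPLD2 and ATP5MC3, with distances of 0.236, 0.307 and 0.310 on the log2(FPKM + 1) scale among 5529 candidate genes. STMN1, which encodes a protein that destabilises microtubules, had an FPKM of 17.3, 19.8 and 17.9 in FT_1 to FT_3 against 79.6–96.6 in WT cells. For ANXA3 they were ITGA6, ADAMTSL4 and CXCL5, with distances of 0.310, 0.788 and 0.788. ITGA6, the integrin chain that anchors epithelial cells to laminin, had an FPKM of 75.7, 6.46 and 6.48 in FT_1 to FT_3 against 14.5–18.4 in WT cells, which is again FT_1 above and FT_2 and FT_3 below the WT libraries.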

How the data were processed

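RNA-seq values of 6 bEF libraries (3 FT, 3 WT) were used. The FPKM values were deposited by the authors, scaled by gene length and library total, and the raw counts per gene were deposited by the authors in the same table. The submitters' processing notes list Bowtie 0.12.2, HISAT2 2.0 and StringTie 1.3.0. How reads shared by overlapping or similar genes were counted is not given in the sources used here. The members and lists were chosen with earlier results of these data known.

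Counts were fitted with edgeR 4.0.16 (TMM factors, filterByExpr, quasi-likelihood test) in R 4.3.3, and genes passed at an adjusted p under 0.05. The SE given with an edgeR log2 fold change was worked back from that test. It is the absolute change divided by the square root of the test's F statistic. Settings tried were RLE scaling, library totals only, no filter, DESeq2 1.42.0, limma 3.58.1 on log2(FPKM + 1) with a mean FPKM of at least 0.5, a pseudocount of 0.1, no FPKM filter, a replicate block, the study's threshold (unadjusted p under 0.05, absolute log2 fold change over 1) and leaving out each library. Ratios were also computed from counts per relative length. The fits were tested on simulated counts. Named were all members, every tested gene of the other annexins and other S100 genes, and the 4 largest changes that passed in each other list. The 3 genes nearest in profile (mean FPKM of at least 10) to ANXA2 and to ANXA3 were named too. ANXA2 had the largest fall, and ANXA3 the only positive log2 fold change in edgeR with all libraries (0.98, but -1.32 without FT_1). Marker lists covered fibroblast, epithelial, mesothelial, endothelial, skeletal muscle, immune, neural crest and glial, and adipocyte genes.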

Additional observations from a re-analysis of the deposited data

How the results depend on the processing

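RLE scaling, library totals only, the missing low-count filter and DESeq2 left the counts of all genes and of partner genes that passed within 1.5 times. In limma on FPKM the number of partner genes that rose was 5, 5 with a pseudocount of 0.1 and 4 with no filter, where 1744 of all genes rose; the cause was not tested. At the study's threshold, which adds a fold limit, 1378 of all genes and 5 partner genes were higher and 1208 and 4 lower.

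The log2 fold change of ANXA3 reversed to -0.18 in limma, -0.24 with a pseudocount of 0.1 and -0.18 with no filter, so that 0 of the 10 genes were higher in FT cells; the cause was not tested. With the replicate block it was -0.23, again with 0 higher. ANXA8L1 and S100A2, which passed in none of these fits, turned to -1.04 and -0.28 in limma and to -1.07 and -0.39 with the block, and S100A16 to -0.03 with library totals only and -0.09 in limma. Samples with the same number came from different fetuses, so no fetus links them. Their deviations from the group means correlated at 0.002, -0.018 and 0.014 for replicates 1, 2 and 3. FT_1 led the FT deviations (median absolute log2 difference 0.39 from the mean of FT_2 and FT_3, against 0.12 between those). A batch shared by replicate number therefore cannot be told from these correlations. The block left 1838 genes that rose and 1741 that fell, and 20 of the 25 partner genes that had passed did so with it.

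Leaving out each library gave 1516–4215 genes that rose and 1531–4337 that fell, and 3–19 and 9–30 partner genes. The log2 fold change ranged from -1.32 to 1.46 for ANXA3, -0.21 to 0.024 for ANXA11, -2.16 to 0.64 for ANXA8L1, -1.57 to 1.57 for S100A2 and -0.22 to 0.26 for S100A16, each with its sign turned without FT_1 alone. For S100B it ranged from -0.74 to 0.12, turning to 0.004 without FT_2 and 0.12 without FT_3, where it did not pass. Of these 25 partner genes, 12 passed in every fit that left out a library.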

Other observations

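Annexins are not the only calcium-dependent phospholipid binding genes. The authors' annotation gave this term to 30 other genes, a list drawn up after the files had been seen, and 20 of them were tested. With all libraries 4 rose and 3 fell in edgeR, beside 20.1% and 18.9% of all genes, and their median log2 fold change was 0.33. Without FT_1, 9 of 23 rose and 4 fell, beside 30.6% and 31.5% of all genes. The synaptotagmin gene SYT17 had an FPKM of 0.44, 0.50 and 0.60 in FT_1 to FT_3 against 1.85–2.26 in WT cells and fell by 1.85 on the log2 scale (SE 0.22, adjusted p = 0.00211), and by 1.73 without FT_1. CPNE8, a copine gene, fell by 0.78 (SE 0.11, adjusted p = 0.00346), and CPNE2, another copine gene, rose by 0.39 (SE 0.09, adjusted p = 0.0163). Without FT_1 they differed by -0.87 and 0.33. Of the 4 genes that rose, CPNE2, SYT3 and SYT9 lost their call without WT_1, WT_2 or WT_3 (adjusted p up to 0.0798, 0.102 and 0.151), and SYT9 also without FT_2 or FT_3. CPNE2 and SYT9 lost it with library totals only (0.0891 and 0.068) and in limma on FPKM (0.0878 and 0.0789), SYT9 with no low-count filter (0.0598) and SYT3 in limma with no filter (0.139). With the replicate number as a block all 4 lost it, ESYT3 at 0.0572. C2CD5, one of the 3 that fell, missed the threshold without WT_1 (0.05004). The extended synaptotagmin gene ESYT3 had 82, 24 and 30 counts in the FT libraries and 0 in each WT library.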
